A study of Mus musculus with 6 samples.

Results

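The genes of bile acid synthesis and transport were examined in mouse liver RNA: the hydroxylases Cyp7a1, Cyp8b1, Cyp27a1 and Cyp7b1, the conjugating enzyme Baat, the transporters Slc10a1, Abcb11 and Abcb4, and the nuclear receptors Nr1h4 and Nr0b2. They were chosen by gene symbol, and all 10 were found among the 18444 genes listed in at least 1 library. The series held 6 libraries of liver RNA from male C57BL/6 mice (C57BL/6J in the methods of the study) labelled as 6 to 8 weeks old, 1 library per condition and no replicate. In the diet model, SD mice received chow as controls, HFD mice received a high fat diet for 16 weeks to produce steatohepatitis, and HFD plus JT003 mice were on the same diet and were injected daily with 500 μg/kg of JT003 over the closing 4 weeks. JT003 is a peptide agonist of the adiponectin receptors AdipoR1 and AdipoR2. In the fibrosis model, corn oil mice received the vehicle, CCl4 mice received 20% carbon tetrachloride at 5 ml/kg every 3 days for 6 weeks, and CCl4 plus JT003 mice also received the same daily dose of JT003 for the closing 3 weeks. The models ran for 16 and 6 weeks, so the labelled age cannot be the age at collection in the diet model. All mice were fasted for 8 h before tissue collection. The study describes 6 mice per group, and neither the number of mice behind a library nor the hour of collection was given in the sources used here.

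Bile acids are made from cholesterol in hepatocytes. Cyp7a1 catalyses the rate-limiting step of the classical pathway, and Cyp8b1 adds the hydroxyl group that turns the product into cholic acid. Cyp27a1 and Cyp7b1 act in the alternative pathway, which runs through oxysterols. Baat joins the acids to taurine, Slc10a1 (NTCP) takes them up from sinusoidal blood, Abcb11 (BSEP) pumps them into the canaliculus, and Abcb4 (MDR2) moves phosphatidylcholine to the canalicular face, where it accompanies bile salts. Nr1h4 encodes FXR, the receptor that senses bile acids, and Nr0b2 encodes SHP, an FXR target that represses Cyp7a1 and Cyp8b1. Abcb11 is also a textbook FXR target, while HNF4 and NR5A2 are activators of the hydroxylase genes.

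The stretches before the transcription starts of Abcb11, Cyp8b1 and Nr0b2 are printed because each held a match to the element of one of these receptors. They come from RefSeq (GRCm38.p6), whereas the submitters' processing notes name mm9 for the expression files, which carry no coordinates. Of the 10 genes, 7 were in the RefSeq promoter table, and Cyp7a1, Cyp7b1 and Baat were not. Each stretch is the 250 bases upstream of the start, written 5′ to 3′ on the strand of the gene, with the matched letters in capitals.
Abcb11: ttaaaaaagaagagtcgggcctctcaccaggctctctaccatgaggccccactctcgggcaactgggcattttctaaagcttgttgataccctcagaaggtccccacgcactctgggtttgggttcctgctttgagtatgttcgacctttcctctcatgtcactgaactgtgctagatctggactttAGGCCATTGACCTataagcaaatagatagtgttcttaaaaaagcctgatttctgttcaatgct
Cyp8b1: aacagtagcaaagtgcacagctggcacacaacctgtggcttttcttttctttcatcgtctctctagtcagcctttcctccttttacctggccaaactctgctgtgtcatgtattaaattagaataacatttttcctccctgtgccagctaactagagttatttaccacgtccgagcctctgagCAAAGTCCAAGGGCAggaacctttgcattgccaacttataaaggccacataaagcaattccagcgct
Nr0b2: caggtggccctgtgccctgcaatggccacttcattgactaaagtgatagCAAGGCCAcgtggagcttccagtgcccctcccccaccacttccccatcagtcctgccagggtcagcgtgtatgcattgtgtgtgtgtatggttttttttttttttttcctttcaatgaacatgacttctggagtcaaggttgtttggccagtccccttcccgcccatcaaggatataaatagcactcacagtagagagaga
The Abcb11 stretch lies at chr2:69342617-69342866 on the minus strand, the Cyp8b1 stretch at chr9:121916306-121916555 on the minus strand, and the Nr0b2 stretch at chr4:133553126-133553375 on the plus strand. The FXR element searched was an inverted repeat, AGGNCA, then any 1 base, then TGACCT, on both strands. It began 63 bases before the start of Abcb11, and 12 of 32851 promoters of the same length in the table, 0.0365%, held it. The HNF4 motif CAAAGTCCA began 67 bases before the start of Cyp8b1 and was in 0.475% of promoters. The NR5A2 motif CAAGGNCA began 60 bases before the start of Cyp8b1, where it overlaps the HNF4 match, and 201 bases before the start of Nr0b2, and was in 6.71% of promoters. These matches describe the letters of the windows and are not evidence of binding.

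The libraries held between 19374236 and 20184557 counts, and the 10 genes took between 0.196% and 0.353% of them. The defining hepatocyte marker Alb had at least 1067046 counts in every library. The summed level of 9 hepatocyte markers lay between 82087 and 97584 CPM, the counts after scaling to library size. Most of this sum was Alb, at 56573 to 71744 CPM, so it does not show the other markers. By value, 7 of the 9 were lower and 2 higher in CCl4 than corn oil (median log2 ratio -0.28). The same split held for HFD plus JT003 over SD (median -0.48), and HFD over SD had 6 lower and 3 higher (median -0.17). With JT003 the medians were -0.13 over HFD and -0.05 over CCl4. In bulk tissue, fewer hepatocytes and less RNA per hepatocyte cannot be told apart. Counts of each library were scaled by TMM, a method that sets most genes equal between libraries. A gene was called when its libraries differed by an absolute log2 ratio of at least 1 and at an adjusted p-value under 0.001 in an exact binomial test of the reads. With 1 library per condition this test compares libraries and not conditions. The 95% intervals below likewise cover counting error only, and no ratio has a replicate check.

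Per length of transcript, Slc10a1 was the most abundant of the 10 messages and Cyp7a1 the least. The median FPKM (fragments per kilobase of transcript, scaled to library size) over the 6 libraries was 261 for Slc10a1, 165 for Cyp27a1 and 119 for Baat. Cyp7b1, Cyp8b1 and Abcb4 followed at medians of 113, 108 and 107 FPKM, which their ranges across libraries do not separate. Abcb11 had a median of 65.4 FPKM and Nr1h4 one of 55.7 FPKM, and Nr0b2 and Cyp7a1 stood lowest at 20.2 and 12.2 FPKM. The order depended on the library, since Cyp8b1 ranged from 31.3 to 521 FPKM and Cyp7b1 from 8.89 to 187 FPKM.

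**Figure D1:**
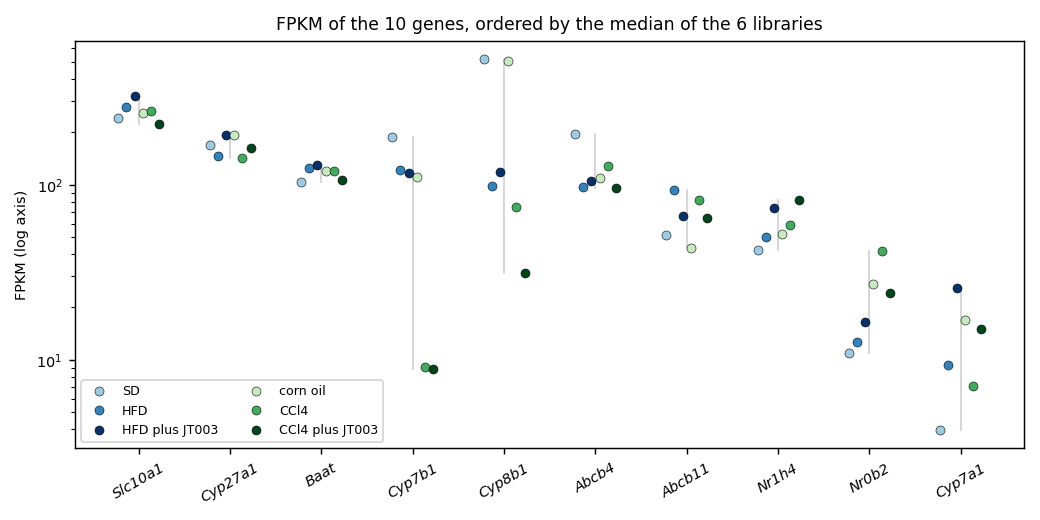
FPKM of each gene on a log axis, with a point for each of the 6 libraries and a grey line over their range, and genes ordered by median. Cyp8b1 and Cyp7b1 span the widest ranges, and Cyp7a1 lies between 3.98 and 25.8 FPKM.

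Cyp7a1 changed in every main comparison, and the level in the CCl4 liver was below that of its control while the level in the HFD liver was above. It had 339 counts in SD, 781 in HFD and 2160 with JT003 on HFD, which are 18.0, 38.9 and 106 CPM (scaled over all 6 libraries). In corn oil it had 1387 counts, with 605 in CCl4 and 1233 with JT003 on CCl4, or 81.6, 28.5 and 57.4 CPM. SD was the lowest and HFD plus JT003 the highest library, and no neighbours in this order had overlapping counting intervals. HFD over SD had a log2 ratio of 1.11 (0.93 to 1.30), against -1.48 (-1.63 to -1.35) for CCl4 over corn oil. With JT003 it was 1.44 (1.33 to 1.56) over HFD and 1.01 (0.87 to 1.16) over CCl4, the latter at the edge of the threshold and 0.99 with 1 added to FPKM values. Both JT003 calls, and those of HFD over SD and CCl4 over corn oil, were lost when a biological coefficient of variation of 0.2 was assumed in the exact test of edgeR. The CCl4 plus JT003 liver remained below corn oil by value, with a log2 ratio of -0.47 (-0.58 to -0.36) that was not called.

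The control livers themselves differed in Cyp7a1, which was 4.52-fold higher in corn oil than in SD, a log2 ratio of 2.18 (2.01 to 2.36). This was larger than the log2 ratio of HFD over SD, of CCl4 over corn oil or of either JT003 comparison. Corn oil and SD differ in diet history, injections, duration and experiment, which cannot be told apart here. Transcripts of the circadian clock also differed between libraries. Dbp, a clock output gene, had 21.1 CPM in SD, 86.5 in HFD and 47.9 with JT003 on HFD, and 48.5 in corn oil, 4.53 in CCl4 and 89.9 with JT003 on CCl4. Of 10 clock genes that peak with Dbp, 4 were called higher in HFD than SD, with a list median log2 ratio of 0.76. In CCl4 over corn oil 6 were called lower (median -1.16, against 0.00 for all genes tested), and in CCl4 plus JT003 over CCl4 7 were called higher (median 1.81). In HFD plus JT003 over HFD none was called higher and 2 were called lower (median 0.06), and in corn oil over SD 2 were called higher (median 0.58). Their summed level ran from 273 CPM in CCl4 to 699 in CCl4 plus JT003. Cyp7a1 is itself known as a rhythmic gene, and the part of collection time in its ratios was not tested.

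Cyp8b1 was high in both control livers and low in all 4 livers of the disease models. It had 20532 counts in SD and 19408 in corn oil, 1089 and 1142 CPM. It had 3772 counts in HFD and 4563 in HFD plus JT003, or 188 and 224 CPM. In CCl4 it had 2950 counts and in CCl4 plus JT003 1186, or 139 and 55.2 CPM. The highest disease library was HFD plus JT003. HFD over SD had a log2 ratio of -2.54 (-2.59 to -2.49), against -3.01 (-3.06 to -2.95) for CCl4 over corn oil. Of all genes with at least 100 counts in either library, 0.784% and 1.38% had absolute ratios as large in these comparisons. With JT003 it was 0.25 (0.19 to 0.31) over HFD, not called, and -1.32 (-1.42 to -1.23) over CCl4. The last call was lost when the pooled CCl4 counts replaced the CCl4 library (-0.83) and when libraries were scaled to Actb (-0.96). The pooled column of the authors' comparison table sums to 2.97 times the CCl4 library, and its make-up was inferred from its values.

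Cyp7b1 fell in the CCl4 livers. In corn oil it had 4673 counts, with 400 in CCl4 and 375 with JT003 on CCl4, or 275, 18.9 and 17.5 CPM. It had 8190 counts in SD, 5182 in HFD and 5027 with JT003 on HFD, or 434, 258 and 246 CPM. The CCl4 and CCl4 plus JT003 libraries were the lowest, and neither the CCl4 pair nor the HFD pair was separated by its counting intervals. The log2 ratio of CCl4 over corn oil was -3.83 (-3.99 to -3.69), 14.2-fold lower, and that of HFD over SD was -0.75 (-0.80 to -0.70), not called. Cyp7b1 is known to be expressed more in male than female mouse liver, and other male-biased genes were also lower in the CCl4 livers than in corn oil. Of 9 such genes, 7 were called lower in CCl4 than corn oil, with a median log2 ratio of -3.22, and all 9 were called lower in CCl4 plus JT003 than corn oil (median -2.37). Their summed level was 8634 CPM in corn oil, 3545 in CCl4 and 3135 with JT003 on CCl4, against 6716 in SD. Its largest part was Gstp1, at 3825, 2258, 1596 and 3026 CPM in the same order. In other comparisons the list was mixed. In CCl4 plus JT003 over CCl4, 2 were called higher and 1 lower (median 0.15), and in HFD over SD 2 higher and 2 lower (median -0.33). Of 9 markers of pericentral hepatocytes, the cells that activate CCl4, 4 were called lower in CCl4 than corn oil (median -0.92). The other 5 were not called, and 4 of these were above 0 by value: Cyp1a2 at 0.59, Axin2 at 0.66, Rgn at 0.11 and Gulo at 0.08. The summed level of the 9 was 13094 CPM in corn oil and 3479 in CCl4, most of which was Cyp2e1 at 8902 and 1844 CPM, and the glutamine synthetase gene Glul went from 874 to 92.5 CPM. The part of either list in the Cyp7b1 ratio was not tested.

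Cyp27a1 varied least of the hydroxylases and was called in no comparison. It had 348 CPM in SD, 278 in HFD and 363 with JT003 on HFD, and 429 in corn oil, 261 in CCl4 and 285 with JT003 on CCl4. Each control was above the disease library of its model by value. The log2 ratio of HFD over SD was -0.32 (-0.37 to -0.27), against -0.69 (-0.74 to -0.64) for CCl4 over corn oil, and with JT003 it was 0.38 (0.33 to 0.43) over HFD and 0.14 (0.09 to 0.19) over CCl4.

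The makeup of the hydroxylase messages therefore differed between livers. Cyp8b1 made up 59.2% of the summed FPKM of the 4 hydroxylases in SD and 61.4% in corn oil, 26.2% in HFD and 26.0% in HFD plus JT003, and 32.2% in CCl4 and 14.4% in CCl4 plus JT003. Cyp27a1 made up 19.1% in SD and 23.2% in corn oil, and 60.8% in CCl4 and 74.7% in CCl4 plus JT003. The share of Cyp7a1 was 0.453% in SD, 2.51% in HFD and 5.70% with JT003 on HFD, and 2.03% in corn oil, 3.06% in CCl4 and 6.91% with JT003 on CCl4. Although Cyp7a1 fell in CCl4, its share was higher there than in corn oil because the summed FPKM went from 831 to 232. The ratio of Cyp8b1 to Cyp7a1 FPKM was 131 in SD, 10.4 in HFD and 4.57 with JT003 on HFD, and 30.2 in corn oil, 10.5 in CCl4 and 2.08 with JT003 on CCl4. In both models the order of this ratio was control, disease, disease plus JT003. In the diet model the JT003 step came with a higher Cyp7a1, and in the CCl4 model with a higher Cyp7a1 and a lower Cyp8b1.

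**Figure D2:**
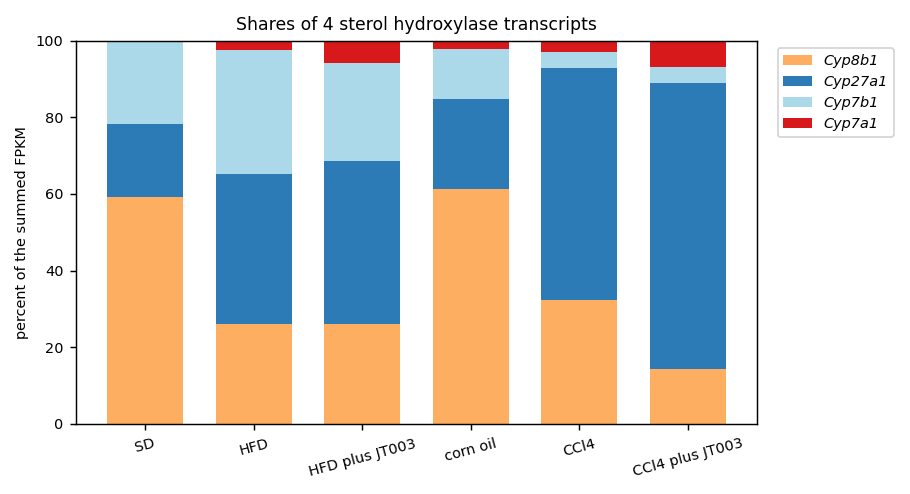
Percent of the summed FPKM of Cyp8b1, Cyp27a1, Cyp7b1 and Cyp7a1 in each library, as stacked bars from 0 to 100%. Cyp8b1 takes 59.2% and 61.4% in the controls SD and corn oil and at most 32.2% in the other libraries.

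Baat and Slc10a1 were close to constant. Baat had 219 CPM in SD, 240 in HFD and 248 with JT003 on HFD, and 268 in corn oil, 222 in CCl4 and 189 with JT003 on CCl4. Slc10a1 had 427 CPM in SD, 453 in HFD and 524 with JT003 on HFD, and 493 in corn oil, 419 in CCl4 and 336 with JT003 on CCl4. From the lowest to the highest library Baat spanned 1.41-fold and Slc10a1 1.56-fold, and both had the lowest level in CCl4 plus JT003. Neither was called in any comparison. The log2 ratio of CCl4 plus JT003 over corn oil was -0.52 (-0.56 to -0.47) for Slc10a1 and -0.46 (-0.52 to -0.40) for Baat. Total-read scaling shifted the median of all genes by 0.32 in that comparison. Over CCl4, JT003 gave a log2 ratio of -0.31 (-0.36 to -0.27) for Slc10a1 and -0.22 (-0.28 to -0.16) for Baat, and both became -0.03 with the pooled CCl4 counts. Scaled to Actb they were 0.05 and 0.14, so no direction is given for them.

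Abcb11 was above its control by value in both disease livers and nearer to control with JT003, though called nowhere. It had 5195 counts in SD, 9167 in HFD and 6500 with JT003 on HFD, or 275, 456 and 318 CPM. In corn oil it had 4230 counts, with 8217 in CCl4 and 6245 with JT003 on CCl4, or 249, 388 and 291 CPM. HFD and CCl4 were its highest libraries, and no neighbours had overlapping counting intervals. HFD over SD had a log2 ratio of 0.73 (0.68 to 0.78), against 0.67 (0.62 to 0.72) for CCl4 over corn oil. With JT003 it was -0.52 (-0.56 to -0.47) over HFD and -0.41 (-0.45 to -0.36) over CCl4. All of these lie under the threshold of 1. Against the rest of the pooled CCl4 counts, whose make-up is inferred, the CCl4 library had a log2 ratio of 0.09 (0.06 to 0.13). A summed remainder does not give the spread between single livers, so how far livers of one condition differ in Abcb11 is not known.

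Abcb4 was set apart by the SD library alone. It had 863 CPM in SD, 394 in HFD and 420 with JT003 on HFD, and 518 in corn oil, 500 in CCl4 and 358 with JT003 on CCl4. The SD value lay above the other 5, which spanned 358 to 518. The log2 ratio of HFD over SD was -1.13 (-1.17 to -1.09), which moved to just under the threshold with 1 added to FPKM values. That of HFD plus JT003 over SD was -1.04, and it fell short of the threshold on total reads (-0.90) and scaled to Actb (-0.78). JT003 gave 0.09 (0.05 to 0.13) over HFD and -0.47 (-0.52 to -0.43) over CCl4. Abcb4 has the close paralogs Abcb1a and Abcb1b, and its counts and those of Slc10a1 were the only ones among the 10 that were not whole, by at most 0.35 of a count. How many reads the paralogs shared is not known from the files.

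The receptors differed from each other. Nr1h4 had 92.5 CPM in SD, 101 in HFD and 146 with JT003 on HFD, and 122 in corn oil, 114 in CCl4 and 151 with JT003 on CCl4. The JT003 livers held the 2 highest Nr1h4 levels, which their counting intervals did not separate. With JT003 the log2 ratio was 0.53 (0.44 to 0.61) over HFD and 0.42 (0.34 to 0.50) over CCl4, neither called. Nr0b2 had 281 counts in SD, 317 in HFD and 413 with JT003 on HFD, or 14.9, 15.8 and 20.2 CPM. In corn oil it had 672 counts, with 1068 in CCl4 and 593 with JT003 on CCl4, or 39.5, 50.4 and 27.6 CPM. All 3 libraries of the CCl4 model were above all 3 of the diet model, controls included. How many of all genes were ordered in this way was not counted. Nr0b2 was 2.64-fold higher in corn oil than in SD, a log2 ratio of 1.40 (1.20 to 1.61) that was called, and it was called in no comparison within a model. JT003 gave a log2 ratio of -0.86 (-1.01 to -0.71) over CCl4 and 0.36 (0.14 to 0.57) over HFD. Nr0b2 and Cyp7a1 were both higher in corn oil than in SD.

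**Figure D3:**
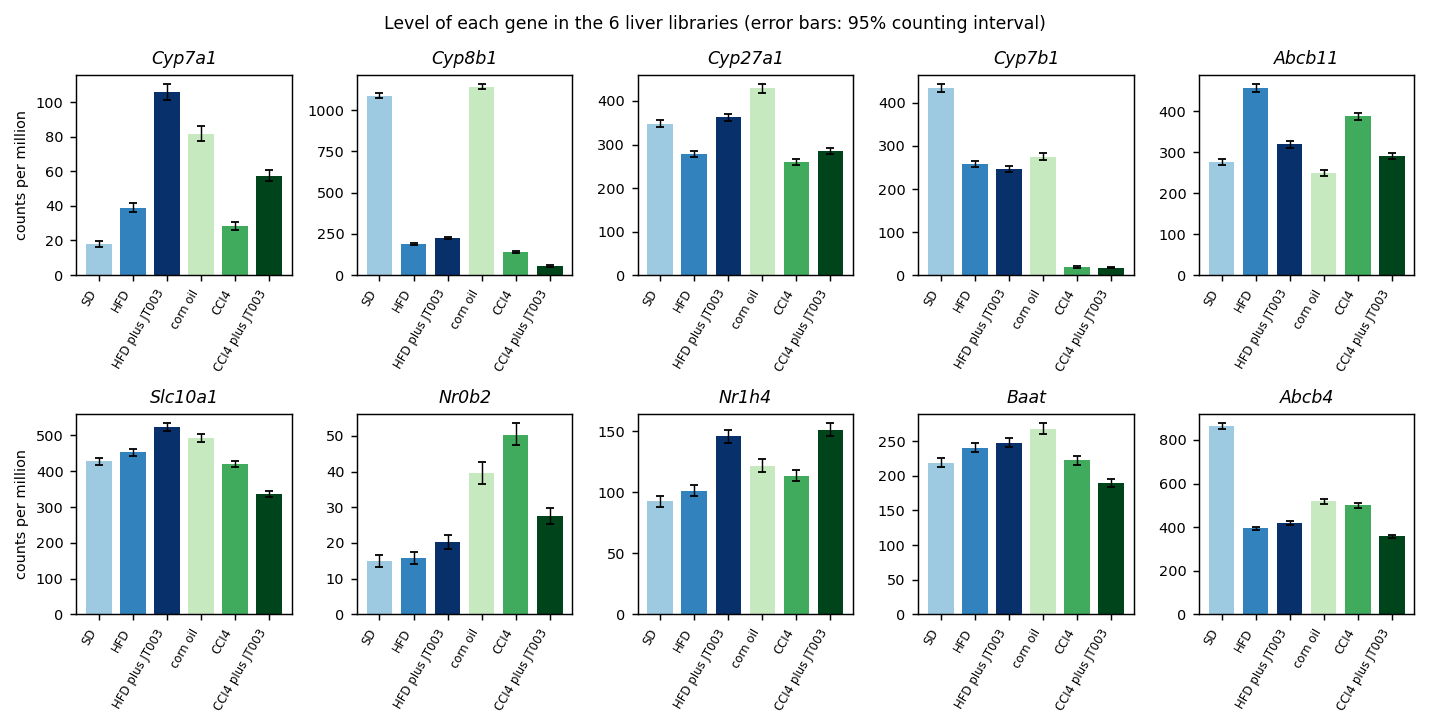
CPM (scaled over 6 libraries) of each gene, with a bar for each library, each panel on its own axis from 0, and error bars for the exact Poisson 95% interval of counting. Cyp8b1 is low outside SD and corn oil, Cyp7b1 is low in both CCl4 libraries, and Abcb4 is highest in SD.

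Between HFD and SD, 3 of the 10 genes were called, Cyp7a1 upward and Cyp8b1 and Abcb4 downward. Of all 16973 genes tested, 5.38% were called in either direction. This share and those below run over all genes with at least 1 read, including genes with far fewer reads than the 10. The median log2 ratio of the 10 genes was 0.08, beside 0.00 for all genes tested. Of the 7 others, Cyp7b1 and Abcb11 had the largest absolute ratios. Scaled to total reads, the median of all genes was shifted by 0.12 in this comparison.

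Between HFD plus JT003 and HFD, 1 of the 10 genes was called, Cyp7a1 upward, where 1.63% of all genes were called. The other 9 lay between -0.52 for Abcb11 and 0.53 for Nr1h4. Among these 9, the cholic acid enzyme Cyp8b1 and the phospholipid transporter Abcb4, both far below SD on the diet, had log2 ratios of 0.25 and 0.09. Set against SD, the HFD plus JT003 liver had 3 of 10 called (5.93% of all genes): Cyp7a1 at 2.55 (2.39 to 2.73), Cyp8b1 at -2.28 (-2.33 to -2.24) and Abcb4 at -1.04. These comparisons share libraries, so their ratios are not independent of each other.

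Between CCl4 and corn oil, 3 of the 10 genes were called, Cyp7a1, Cyp8b1 and Cyp7b1, all downward, where 7.18% of all genes were called. All 3 are hydroxylases, and none of the 6 genes of conjugation, transport and sensing was called. The median log2 ratio of the 10 was -0.22, beside 0.00 for all genes tested. Total-read scaling shifted the median of all genes by 0.23 here. Under it Slc10a1, Nr1h4 and Abcb4, which had small negative ratios, became 0.03, 0.17 and 0.21, so that no direction is given for them.

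Between CCl4 plus JT003 and CCl4, 2 of the 10 genes were called, Cyp7a1 upward and Cyp8b1 downward, where 4.42% of all genes were called. Cyp7b1, the other hydroxylase called lower in CCl4, had a log2 ratio of -0.10 (-0.31 to 0.10). Set against corn oil, the CCl4 plus JT003 liver had 2 of 10 called (4.95% of all genes), Cyp8b1 at -4.33 (-4.42 to -4.25) and Cyp7b1 at -3.93 (-4.09 to -3.79).

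Between the controls corn oil and SD, 2 of the 10 genes were called, Cyp7a1 and Nr0b2, both upward, where 5.42% of all genes were called. Cyp8b1 was nearly equal, with a log2 ratio of 0.07 (0.04 to 0.10) that was -0.02 on total reads. The macrophage markers also differed, since all 7 were called lower in corn oil than in SD with a median log2 ratio of -2.35. Their summed level was 65.4 CPM in corn oil and 293 in SD, and the part of this in the ratios of Cyp7a1 and Nr0b2 was not tested. When the CCl4 library was set against the rest of the pooled CCl4 counts, which appear to hold further CCl4 libraries, 0 of 10 genes were called by the binomial test, where 1.67% of all genes were. There Cyp7a1 had a log2 ratio of -0.01 (-0.15 to 0.13) and Cyp8b1 one of 0.80 (0.73 to 0.87).

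The number of calls depended on the variation between livers that was assumed. With a biological coefficient of variation of 0.2, set by assumption in the exact test of edgeR, HFD over SD kept 1 of 10 genes, Cyp8b1 (1.05% of all genes called). CCl4 over corn oil kept 2, Cyp8b1 and Cyp7b1 (2.01% of all genes). HFD plus JT003 over HFD (0.111%), CCl4 plus JT003 over CCl4 (0.949%) and the CCl4 library over the remaining CCl4 (0.126%) had 0 of 10. HFD plus JT003 over SD kept Cyp7a1 and Cyp8b1 (1.19%), CCl4 plus JT003 over corn oil kept Cyp8b1 and Cyp7b1 (0.796%), and corn oil over SD kept Cyp7a1 (0.617%). With 0.4, none of the 10 was called in any of the 8 comparisons. The share of all genes was then 0.0648% for HFD over SD, 0.342% for CCl4 over corn oil, 0.0294% for HFD plus JT003 over SD, 0.138% for CCl4 plus JT003 over corn oil, 0.0353% for corn oil over SD and 0.0% for the other 3.

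By the binomial test with no threshold on the ratio, 7 to 10 of the 10 genes passed in each comparison. The share of all genes passing was 23.4% for HFD over SD, 14.2% for HFD plus JT003 over HFD, 26.1% for CCl4 over corn oil and 24.0% for CCl4 plus JT003 over CCl4. It was 26.7% for HFD plus JT003 over SD, 20.5% for CCl4 plus JT003 over corn oil, 28.7% for corn oil over SD and 20.4% for the CCl4 library over the remaining CCl4, where 8 of the 10 passed. The smallest count behind a level of the 10 was 281, whereas these shares run over all genes with at least 1 read. For HFD over SD, 9568 of the 16973 genes tested reached 100 counts in either library. Genes with few reads can hardly pass, so the shares are not matched to the 10 genes for depth.

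**Figure D4:**
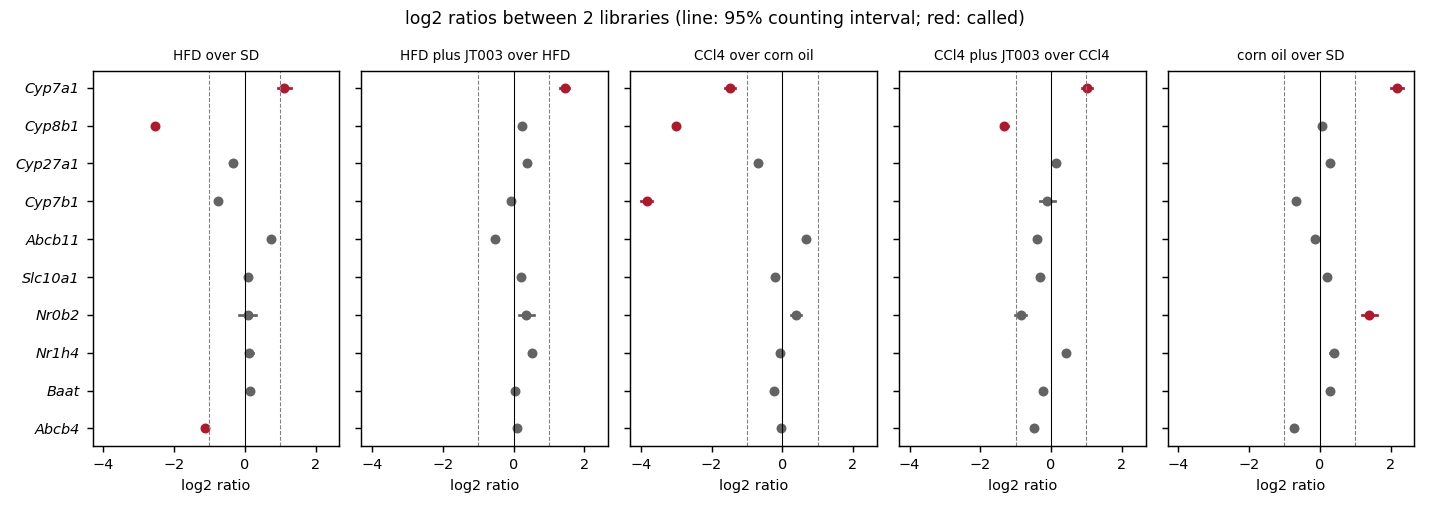
log2 ratios of the 10 genes (points) with 95% counting intervals (lines) in 5 comparisons, red where called, with dashed lines at the thresholds of 1 and -1. Cyp7a1 is called in each of the 5 panels, upward in all but CCl4 over corn oil, and its ratio is largest between the controls, at 2.18.

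The other genes of bile acid handling were taken as lists by role. Where no gene of a list was called, the largest value given is that among genes that reached 100 counts in either library compared. Of 12 other synthesis and side chain genes, 3 rose between SD and HFD and none fell: Akr1d1 at 2.09 and Akr1c6 at 1.85, which reduce the steroid ring of bile acid precursors or related steroids, and Cyp46a1, a cholesterol hydroxylase, at 1.28. The median of the list was 0.12. Akr1d1 had 312 counts in SD, 1424 in HFD and 2815 with JT003 on HFD, and 758 in corn oil, 1783 in CCl4 and 1951 with JT003 on CCl4. Cyp46a1 was at 42 to 112 counts in all 6 libraries. In CCl4 over corn oil 2 of the 12 rose, the oxysterol hydroxylase Cyp39a1 at 1.22 and Cyp2c70, which makes muricholic acids, at 1.28, with a list median of 0.28. With JT003, none of the 12 was called over HFD (median -0.05, largest Akr1d1 at 0.96) and 1 rose over CCl4 (Cyp46a1 at 1.04, median -0.17).

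Among 6 other conjugation genes, Csad, an enzyme of taurine synthesis, fell between SD and HFD at -2.48, from 8381 counts to 1597, and had 1643 in HFD plus JT003. The list median was -0.30. In CCl4 over corn oil Acnat2, an acyltransferase, rose at 1.55 (list median -0.36). Neither JT003 comparison had a call in this list, with medians of 0.08 over HFD and 0.10 over CCl4 and largest values of 0.21 for Slc27a2 and -0.52 for Acnat2.

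Of 5 other uptake genes, 2 rose between SD and HFD, the hepatic uptake transporter Slco1b2 at 1.08 and Slc10a2, the sodium-dependent transporter known from ileum and bile ducts, at 1.98 (list median 0.64). Slc10a2 had 207 counts in SD and 873 in HFD. In CCl4 over corn oil Slco1a1, which is male-biased, fell at -3.22 (list median -0.42), from 4350 to 568 counts. In HFD plus JT003 over HFD Slco1a4 rose at 1.32 (median 0.16), and with JT003 over CCl4 none was called (median 0.25, largest Slco1b2 at 0.55). Slco1a4 was also 2.49 higher on the log2 scale in corn oil than in SD.

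Of 8 other canalicular genes, Abcg5, a sterol exporter, rose between SD and HFD at 1.01 (median 0.21). In HFD plus JT003 over HFD Abcb1a rose at 1.35 (median 0.40), from 54 to 143 counts. In CCl4 over corn oil Abcb1a rose at 2.27 and Abcb1b fell at -1.34 (median 0.02), with at most 143 and 63 counts in any library, and as close paralogs they may share reads. JT003 over CCl4 gave no call (median -0.04, largest Abcc2 at -0.60). Of the 4 basolateral exporters, Slc51a was not listed and Slc51b had at most 10 counts. Abcc3 rose between SD and HFD at 1.15 and was called in no other main comparison, with a list median of 0.58 between SD and HFD, 0.21 for JT003 over HFD, 0.32 for CCl4 over corn oil and -0.50 for JT003 over CCl4.

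Of 16 other regulators, which include Hnf4a, Nr5a2 and the receptor pair Fgfr4 and Klb, the only call in the main comparisons was Nr1i3 (CAR, a receptor of foreign compounds), which rose between HFD and HFD plus JT003 at 1.31, from 2139 to 5387 counts. The list median was 0.01 for HFD over SD, -0.05 for JT003 over HFD, 0.01 for CCl4 over corn oil and -0.16 for JT003 over CCl4. In the same count range, the largest values were -0.50 for Nr1i2 in HFD over SD, and for Nr1i3 -0.79 in CCl4 over corn oil and 0.87 in CCl4 plus JT003 over CCl4. Fgf15, the ileal hormone of FXR, was not listed, and Vdr and Gpbar1 had at most 3 and 2 counts. Of 9 other FXR targets, 7 were tested. Sdc1 fell at -1.08 and Apoc2 at -1.06 between SD and HFD (median -0.48), and Osgin1 rose at 1.12 and Pltp fell at -1.37 between corn oil and CCl4 (median 0.09). JT003 gave no call among them, and the medians were 0.21 over HFD, with Osgin1 farthest at 0.82, and -0.01 over CCl4, with Sdc1 farthest at -0.34.

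**Figure D5:**
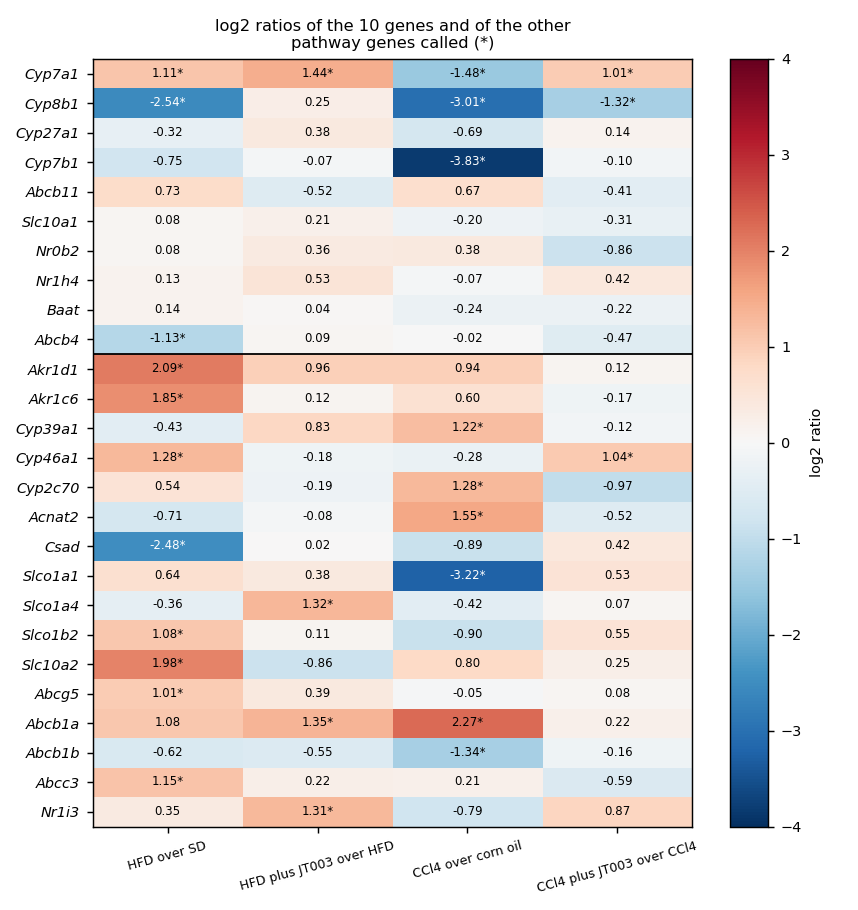
log2 ratios in the 4 main comparisons as colours and numbers, for the 10 genes above the line and, under it, the 16 other synthesis, conjugation, transport and regulator genes called in at least 1 of them. An asterisk marks a call, and Slco1a1 and Cyp7b1 hold the lowest values between corn oil and CCl4.

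The genes whose profile over the 6 libraries was most like each of the 10 were taken from 9366 others with a mean of at least 100 counts, by the Pearson correlation of log2 CPM. They are described only, since so many profiles over 6 libraries contain close matches. Cyp7b1 ran nearest to Plbd1 (r = 0.999), Abat (0.997) and Pdxdc1 (0.995), and Plbd1 went from 942 counts in corn oil to 256 in CCl4. Abcb4 ran nearest to Pex19 (0.998), a peroxisome assembly factor, Tmem135 (0.997) and Galnt2 (0.992), which were also highest in SD. Cyp8b1 ran nearest to Bhmt2 (0.995), Decr2 (0.992) and Plekhb1 (0.990), whose spans of 1.70-fold to 1.88-fold were far less than the 20.7-fold span of Cyp8b1. Cyp7a1 ran nearest to Ddx52 (0.995), Nat2 (0.988) and B2m (0.983), with spans of at most 1.75-fold against 5.89-fold for Cyp7a1.

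The nearest profiles of the other genes were Bcl7a (0.978), Idh3a (0.970) and Cbx2 (0.969) for Cyp27a1. They were Ssr1 (0.977), Col6a3 (0.977) and Lyplal1 (0.973) for Abcb11, of which the collagen gene Col6a3 had 192 counts in SD, 442 in HFD and 253 with JT003 on HFD, and 130 in corn oil, 442 in CCl4 and 248 with JT003 on CCl4. They were Cwf19l1 (0.989), Yy1 (0.966) and Cops3 (0.959) for Slc10a1, and Coq5 (0.977), Gpr108 (0.976) and Cat (0.946) for Baat. They were Tmem59 (0.989), Slpi (0.976) and Tpst2 (0.975) for Nr0b2, and Hrg (0.986), Gm10768 (0.983) and Marcksl1-ps4 (0.972) for Nr1h4. Among the 10 genes themselves the closest pair was Slc10a1 and Baat (r = 0.937) and the next Nr1h4 and Cyp7a1 (0.801), while Nr0b2 and Cyp7a1 had r = 0.203.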

How the data were processed

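Liver RNA was sequenced on the BGISEQ-500 platform, and per the labels' processing notes HISAT, Bowtie2 and RSEM were used with the mouse build mm9. Versions and annotation are not given in the sources used here. For each of the 6 libraries the authors deposited an expected count per gene, which is an unnormalized estimate in which reads shared by several genes are split, and an FPKM value per gene. About 70% of expected counts were whole (69.9% to 70.9% per library). They were rounded to whole numbers. The authors also deposited 4 comparison tables. Their fold changes and p-values were not used, nor were 7 other columns of per-sample values. The pooled CCl4 column of 1 table holds expected counts deposited by the authors and sums to 2.97 times the CCl4 library.

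Normalization used TMM (edgeR 4.0.16, run in R 4.3.3), computed within the 3 libraries of each model, and over all 6 for CPM and for corn oil over SD. Every gene with at least 1 read in either library entered an exact binomial test, two-sided and conditional on the sum of reads (scipy 1.17.1), and p-values were adjusted by Benjamini-Hochberg over all genes. The threshold for a call was 0.001 for the adjusted p-value and 1 for the absolute log2 ratio, to which a prior count of 2 was applied. Ratios have 95% Clopper-Pearson intervals, and single levels exact Poisson intervals, which cover counting error only. The quasi-likelihood test needs replicates and could not be fitted. The test was first run on simulated data with known changes, drawn with counting error only. Such data hold no variation between mice, so that run cannot show how the test behaves between mice. Tables and plots were made with Python 3.11.15, numpy 2.4.6, pandas 2.3.3 and matplotlib 3.10.9. Alternatives were total reads, DESeq2 1.42.0 size factors, scaling to Actb, a minimum of 10 counts, other thresholds, a prior count of 0.5, assumed biological variation, log2 FPKM and the pooled CCl4 counts. TMM over 6 libraries within a model, and the comparison with the rest of the CCl4 counts, were added after seeing the data.

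The 10 genes and all lists were chosen with earlier results of these data known. Named were all 10 genes, each list gene called in a comparison described or else the one with the largest absolute ratio among genes that reached 100 counts in either library compared, defining markers, and the 3 nearest profiles of each gene. Promoters are from RefSeq (GRCm38.p6), from 250 bases before to 50 after the start, and only the part before the start is printed.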

Additional observations from a re-analysis of the deposited data

Results flagged for a closer look

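Several of the 10 genes were above 0 on the log2 scale in the diet model and below 0 in the CCl4 model. Each contrast rests on 1 library per condition, so the differences were not tested. For JT003 over the disease liver, Cyp8b1 was at 0.25 in the diet model and -1.32 in the CCl4 model, a difference of 1.58, and Nr0b2 at 0.36 and -0.86, a difference of 1.21. Abcb4 was at 0.09 and -0.47, a difference of 0.56, and Slc10a1 at 0.21 and -0.31, a difference of 0.52. With the pooled CCl4 counts the CCl4 values became -0.83 for Cyp8b1, -0.68 for Nr0b2, -0.28 for Abcb4 and -0.03 for Slc10a1. Scaled to Actb, Slc10a1 was 0.05 in the CCl4 model, so the sign of its value there depends on the scaling.

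For the disease liver over its control, Cyp7a1 was at 1.11 in the diet model and -1.48 in the CCl4 model, a difference of 2.59. Baat was at 0.14 and -0.24, a difference of 0.37, and Slc10a1 at 0.08 and -0.20, a difference of 0.29. The negative values of Slc10a1 and Baat were 0.03 and 0.00 on log2 FPKM with 0.1 added, so their signs depend on the scaling.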

How the results depend on the processing

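Of 940 log2 ratios of the 10 genes under an alternative, 855 kept their side of the threshold, 53 passed it only without a threshold on the ratio and 32 fell short of it. No called ratio changed sign, and 20 ratios that were not called did, all of at most 0.31 in size. Without that threshold the genes called were 8 for HFD over SD, 7 for HFD plus JT003 over HFD, 8 for CCl4 over corn oil, 9 for CCl4 plus JT003 over CCl4, 9 for HFD plus JT003 over SD, 10 for CCl4 plus JT003 over corn oil, 10 for corn oil over SD and 8 for CCl4 over the remaining CCl4, beside 14.2% to 28.7% of all genes. With a biological coefficient of variation set at 0.2 in the exact test of edgeR they were 1 for HFD over SD, 0 for HFD plus JT003 over HFD, 2 for CCl4 over corn oil, 0 for CCl4 plus JT003 over CCl4, 2 for HFD plus JT003 over SD, 2 for CCl4 plus JT003 over corn oil and 1 for corn oil over SD. At 0.4, 0 were called in all 7 planned comparisons, where the binomial test called 1 to 3. The share of all genes called was 0.111% to 2.01% at 0.2 and 0.0% to 0.342% at 0.4. For CCl4 plus JT003 over CCl4, 1 rather than 2 was called with scaling to Actb, with log2 FPKM plus 1 and with the pooled CCl4 counts. Total-read scaling shifted the median of all genes by 0.13 for HFD plus JT003 over SD and 0.32 for CCl4 plus JT003 over corn oil. The counting intervals hold no variation between mice. No paired analysis was possible because each condition has 1 library.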

Other observations

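Markers of other liver cells moved beside the bile acid genes. Of 8 cholangiocyte markers, the cells that line bile ducts, 5 were called higher in CCl4 than corn oil, with a median log2 ratio of 1.16. Their summed level was 69.6 CPM in corn oil, 186 in CCl4 and 163 with JT003 on CCl4, of which Spp1 alone had 34.2, 122 and 122. In CCl4 plus JT003 over CCl4, 6 of the 8 were below 0 by value and 2 above, with 1 called lower (median -0.42). Cftr had at most 8 counts in any library. Of 7 macrophage markers, 5 were called higher in CCl4 than corn oil (median 1.61). Corn oil was the lowest library for their summed level, at 65.4 CPM against 143 in CCl4 and 259 with JT003 on CCl4. SD had 293 CPM, HFD 282 and HFD plus JT003 400. In CCl4 plus JT003 over CCl4, 5 of the 7 were above 0 by value and 2 below, with 1 called higher (median 0.58). In HFD plus JT003 over HFD all 7 were above 0 by value and none was called (median 0.57). When CCl4 was set against the remaining CCl4 counts, all 7 were below 0 by value and 3 were called lower (median -0.87). Of 8 stellate cell and myofibroblast markers, 4 were called higher in HFD than SD and 3 were called lower in HFD plus JT003 than HFD, with medians of 0.92 and -0.98. Their summed level was 181 CPM in SD, 343 in HFD and 250 with JT003 on HFD. It was 213 CPM in corn oil, 433 in CCl4 and 290 with JT003 on CCl4. The collagen genes Col1a1, Col1a2 and Col3a1 alone had 117, 96.7 and 104 CPM in CCl4. In CCl4 over corn oil 5 of the 8 were above 0 by value and 3 below: Acta2, Dcn and Lrat. Acta2 went from 9.71 to 5.09 CPM and Dcn from 132 to 82.2. In each JT003 comparison 6 were below 0 by value, and 2, Dcn and Lrat, were above. Of 6 sinusoidal endothelial markers, 2 were called lower in CCl4 than corn oil (median -0.86).

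Of 8 female-biased liver genes, 2 were called higher in HFD than SD and 3 were called higher in CCl4 than corn oil, with a summed level of 0.37 CPM in SD and 0.65 in corn oil against 46.3 in HFD and 51.6 in CCl4. A different gene carried each sum, Cyp2b9 with 42.6 CPM in HFD and 5.33 in CCl4, and Cyp2a4 with 44.5 CPM in CCl4 and 0.398 in HFD. Of 7 periportal markers, 1 was called lower in each of HFD over SD and CCl4 over corn oil, with medians of -0.73 and -0.19. Of 5 clock genes that peak with Arntl, 3 were called higher in CCl4 than corn oil (median 1.14) and 2 were called lower in CCl4 plus JT003 than CCl4 (median -0.79). Of 6 ileal markers 4 were tested, and their summed level, between 523 and 7696 CPM, was mostly Apoa4, which liver also expresses, at 403 to 7577 CPM.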
